A study of Mus musculus with 4 samples.

Results

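The genes described here are 33 mouse genes of cholesterol and fatty acid synthesis, followed in endothelial cells isolated from adult hearts. A gene was included when the accession of a non-control array probe mapped through RefSeq to its current or older symbol. All 33 genes had a probe, of 18353 genes that RefSeq named on the array and 13628 with a tested probe. They had 55 of the 41174 probes of the array, and 16 genes had 1 probe alone. Where a gene had several probes, the probe with the highest mean over the 4 arrays stood for it. The study set 2 samples labelled G2-EC-KO, which the labels also describe as Gata2 knock out, against 2 control samples given as wild type, and each sample was hybridised to 1 Agilent 1-colour array. No treatment, time point or further allele is given for either group. What drives the deletion, how many animals gave the cells and whether the replicates came from separate animals are not given in the sources used here, so the p-values measure only how far these samples lie apart, which may be technical.

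Cholesterol is built in the endoplasmic reticulum from acetyl-CoA. The mevalonate steps make isoprenoid units, squalene is formed from them and closed into lanosterol, and a chain of demethylations, reductions and isomerisations turns lanosterol into cholesterol. The SREBP transcription factors drive these genes and those of fatty acid synthesis. SCAP escorts SREBP to the Golgi when membrane sterols are low, and INSIG proteins hold it back when sterols are high. Endothelial cells make cholesterol themselves and also take up lipoproteins from the blood. Gata2, the gene named by the knock out label, encodes a DNA-binding zinc finger protein that regulates transcription in endothelium and blood.

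Probes well above background made up 65.1% to 66.5% of all probes on the G2-EC-KO arrays, against between 63.8% and 65.0% on the control arrays, and 0 spots were saturated. All arrays lay on 1 slide, G2-EC-KO at positions 3 and 4 and control at positions 1 and 2, so slide position and group cannot be told apart. Values below are log2 signal relative to the 75th percentile of the array, and a change is the G2-EC-KO mean minus the control mean of these values. The endothelial markers Pecam1, Cdh5, Kdr and 9 others were well above background on every array, with a median log2 change of 0.022 over the 12 genes. Both G2-EC-KO arrays lay below both control arrays for 3 of them, Pecam1, Tek and Tie1, where 16.4% of all genes tested did. Their log2 changes were -0.24, -0.24 and -0.22. For 1 marker, Emcn, both G2-EC-KO arrays lay above both control arrays, where 30.8% of all genes tested did. Gata2 itself read 2.16 and 2.46 in G2-EC-KO, against 1.85 and 2.17 in control at probe A_51_P516625, a log2 change of 0.30 (SE 0.18), and 0.17 at its other probe, with adjusted p-values of 0.584 and 0.650 (limma). The labels do not say which part of Gata2 was deleted, and the position of these probes in the gene was not analysed here, so the probes do not check the labels. Since these are bulk samples, fewer cells of a type and less RNA per cell cannot be told apart.

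No gene of cholesterol or fatty acid synthesis passed an adjusted p of 0.05 in limma, 0 of 33, where 0% of the 13628 genes with a tested probe passed, and 0.00372% of all 26893 tested probes, 1 probe, did. The log2 change was above 0 for 26 genes and below 0 for 7, with a median of 0.12, against a median of 0.043 and 58.6% above 0 over all genes tested. Both G2-EC-KO arrays read above both control arrays for 18 of the 33 genes, where 30.8% of all genes tested did, and below both for 3, where 16.4% did. The groups thus did not overlap for 21 genes, where 47.2% of all genes did not, and overlapped for 12. At an unadjusted p under 0.05, 3 genes were higher (Scd2, Dhcr7 and Msmo1), where 6.19% of all genes were, and 0 were lower, where 2% were. These 3 became 0 without control replicate 1 or without control replicate 2, 5 without G2-EC-KO replicate 1, and 1 without G2-EC-KO replicate 2. The changes were small, with 0 of 33 genes beyond 1.5-fold, and the 95% confidence interval of the change stayed within 2-fold for 31 of them. An exact permutation test of 2 against 2 arrays has 0.333 as its smallest two-sided p, so the limma values are given throughout.

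**Figure D1:**
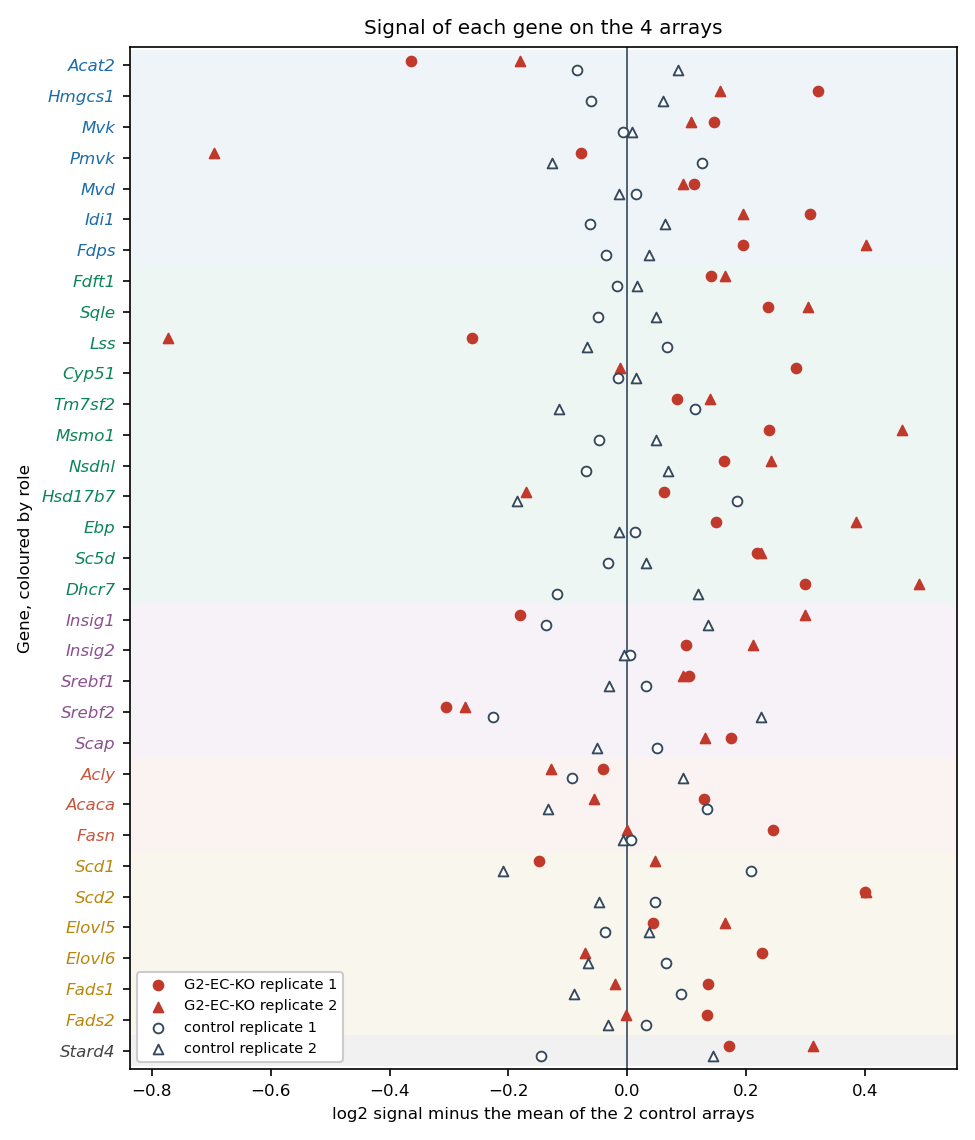
Log2 signal of each of the 33 genes on the 4 arrays, with the mean of the control arrays subtracted, by gene and in pathway order from top to bottom; filled symbols are G2-EC-KO arrays and open symbols control arrays. In 18 genes both filled symbols lie right of both open ones, and Pmvk and Lss have the points farthest to the left.

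**Figure D2:**
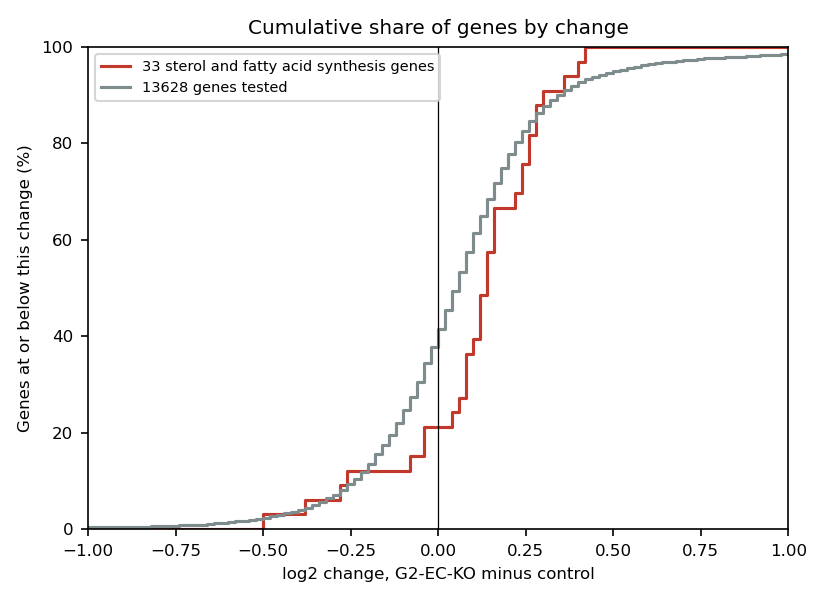
Cumulative percentage of genes (vertical axis) at or below a given log2 change, G2-EC-KO minus control (horizontal axis), for the 33 sterol and fatty acid synthesis genes and for the 13628 genes tested. The line of the 33 genes lies to the right of that of all genes over the middle of the range, with medians of 0.12 and 0.043.

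The start regions of these genes were read from RefSeq promoter windows of GRCm38.p6, 250 bases before to 50 after a start site, which matched 26 of the 33 genes with 34 windows. Fdps, Fdft1, Sqle, Scd1, Scd2, Fads1 and Stard4 are named only. The sterol regulatory motif TCACNCCAC, searched on both strands, occurred in 1 of the 34 windows, that of Hmgcs1, and in 1.24% of the 32851 windows of all genes. Only exact matches within the windows were counted, so variant or more distant sites were not searched. The NF-Y motif CCAAT occurred in 64.7% of the windows of the 26 genes, against 37.4% of all windows, and the Sp1 motif GGGCGG in 73.5%, against 35.7%. All windows include those of genes not tested on these arrays, and shares over the tested genes alone were not taken. The GATA motif AGATAA occurred in 2.94% of the windows, 1 window of Insig2, against 11.2% of all windows. No 2 different motifs overlapped in these windows. The Hmgcs1 window, chr13:119690101-119690400 on the plus strand, is shown because it alone held the sterol motif, which is in capitals. The windows of Dhcr7 (chr7:143829964-143830263, plus strand) and Msmo1 (chr8:64733529-64733828, minus strand), with CCAAT on either strand in capitals, belong to the genes with an unadjusted p under 0.05 that have a window, and that of Insig2 (chr1:121332540-121332839, minus strand) carries the GATA motif, in capitals on the opposite strand. These last 3 were chosen after the values were seen. Dhcr7 and Insig2 have 3 windows each, of which 1 is shown.
Hmgcs1: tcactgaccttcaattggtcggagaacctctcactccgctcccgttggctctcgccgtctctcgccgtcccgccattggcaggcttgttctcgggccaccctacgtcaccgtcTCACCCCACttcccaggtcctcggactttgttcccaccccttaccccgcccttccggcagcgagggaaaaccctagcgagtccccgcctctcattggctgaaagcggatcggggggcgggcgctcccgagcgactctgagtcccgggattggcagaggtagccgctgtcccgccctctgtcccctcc
Dhcr7: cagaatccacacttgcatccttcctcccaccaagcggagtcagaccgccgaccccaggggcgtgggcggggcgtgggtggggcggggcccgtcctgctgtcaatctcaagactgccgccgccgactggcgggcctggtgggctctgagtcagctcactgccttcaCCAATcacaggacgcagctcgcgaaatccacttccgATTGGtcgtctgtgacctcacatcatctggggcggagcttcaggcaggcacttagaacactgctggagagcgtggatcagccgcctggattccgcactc
Msmo1: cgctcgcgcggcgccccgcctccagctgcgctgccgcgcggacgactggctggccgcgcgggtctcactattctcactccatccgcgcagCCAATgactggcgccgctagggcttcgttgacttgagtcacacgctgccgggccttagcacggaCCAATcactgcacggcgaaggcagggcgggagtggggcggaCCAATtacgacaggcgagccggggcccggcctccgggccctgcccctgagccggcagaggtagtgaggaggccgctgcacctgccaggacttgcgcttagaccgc
Insig2: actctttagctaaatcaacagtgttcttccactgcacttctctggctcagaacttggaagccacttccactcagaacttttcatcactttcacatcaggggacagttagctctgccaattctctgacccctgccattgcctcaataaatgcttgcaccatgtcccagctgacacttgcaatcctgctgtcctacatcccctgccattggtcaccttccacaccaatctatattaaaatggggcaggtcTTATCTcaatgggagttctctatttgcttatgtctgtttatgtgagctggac

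The mevalonate steps were split, with 5 of 7 genes higher in G2-EC-KO, 2 lower, and 0.13 as the median log2 change. Over all genes tested 58.6% were higher, with a median of 0.043. The groups did not overlap for 6 of the 7 genes, where 47.2% of all genes tested did not. Hmgcs1, the synthase that makes HMG-CoA and whose window holds the sterol motif above, read 2.71 and 2.55 on the G2-EC-KO arrays, against 2.33 and 2.45 on the control arrays, a log2 change of 0.24 (SE 0.12). Idi1, which isomerises isopentenyl diphosphate, read 1.52 and 1.41 on the G2-EC-KO arrays, against 1.15 and 1.28 on the control arrays. Fdps, the farnesyl diphosphate synthase, read 0.072 and 0.28 on the G2-EC-KO arrays, against -0.16 and -0.088 on the control arrays. For these 3 genes both G2-EC-KO arrays lay above both control arrays, and the changes were 0.25 for Idi1 and 0.30 for Fdps, with a 95% confidence interval for Fdps of -0.036 to 0.63 (limma, adjusted p = 0.537). Mvk, the mevalonate kinase, read -1.53 and -1.57 in G2-EC-KO, against -1.69 and -1.67 in control. Mvd, the diphosphomevalonate decarboxylase that follows it in the pathway, read -1.68 and -1.69 in G2-EC-KO, against -1.78 and -1.80 in control. Their groups did not overlap either: the arrays of a group lay within 0.040 of each other for Mvk and within 0.029 for Mvd, and the log2 changes were 0.13 and 0.10.

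The 2 mevalonate-step genes on the lower side were Acat2 and Pmvk. Acat2, the cytosolic thiolase that condenses acetyl-CoA before Hmgcs1 acts, read -2.45 and -2.27 on the G2-EC-KO arrays, against -2.17 and -2.00 on the control arrays. Both G2-EC-KO arrays lay below the control arrays, and the log2 change was -0.27 (SE 0.13) (limma, adjusted p = 0.550). With normexp it was -0.13. Pmvk, the phosphomevalonate kinase between Mvk and Mvd, read 2.78 and 2.17 on the G2-EC-KO arrays, against 2.99 and 2.74 on the control arrays. Its log2 change of -0.39 (SE 0.24) came mostly from G2-EC-KO replicate 2, since replicate 1 lay between the control arrays. The second Pmvk probe, A_51_P492408, showed the same pattern with 2.43 and 1.82 in G2-EC-KO, against 2.60 and 2.38 in control. Without G2-EC-KO replicate 2 the change of Pmvk was -0.078, and without G2-EC-KO replicate 1 it was -0.70.

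Of the 11 genes from squalene to cholesterol, 9 were higher in G2-EC-KO and 2 lower, the median log2 change being 0.20, and for 7 of them both G2-EC-KO arrays lay above both control arrays. Over all genes tested, 58.6% had a log2 change above 0 and 30.8% had both G2-EC-KO arrays above both control arrays. Fdft1, the squalene synthase, read -0.65 and -0.63 on the G2-EC-KO arrays, against -0.81 and -0.78 on the control arrays. Sqle, the squalene epoxidase that is a rate-limiting step, read -0.48 and -0.41 on the G2-EC-KO arrays, against -0.76 and -0.66 on the control arrays, a log2 change of 0.27 (SE 0.11) (95% confidence interval -0.022 to 0.56). Both are among the genes without overlap. Msmo1, the methylsterol monooxygenase whose older symbol is Sc4mol, read 1.52 and 1.74 on the G2-EC-KO arrays, against 1.23 and 1.32 on the control arrays. Its log2 change was 0.35 (SE 0.13), 1.27-fold, with a confidence interval of 0.0033 to 0.70 and an adjusted p of 0.519 in limma. Nsdhl, the dehydrogenase that acts with it in removing the methyl groups, read -0.94 and -0.87 on the G2-EC-KO arrays, against -1.18 and -1.04 on the control arrays, and its 3 probes gave log2 changes of 0.19 to 0.25.

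Ebp, the sterol isomerase, read 2.89 and 3.13 on the G2-EC-KO arrays, against 2.76 and 2.73 on the control arrays. Sc5d, the lathosterol desaturase, read 0.76 and 0.77 on the G2-EC-KO arrays, against 0.51 and 0.57 on the control arrays. Dhcr7, the reductase of the last step of one branch, read 0.90 and 1.10 on the G2-EC-KO arrays, against 0.48 and 0.72 on the control arrays. All G2-EC-KO values of these 3 genes exceeded the control values, where 30.8% of all genes tested showed this. The log2 changes were 0.27, 0.22 and 0.40. The change of Dhcr7 was 1.32-fold, with a confidence interval of 0.012 to 0.78 on the log2 scale and an adjusted p of 0.514 in limma. Its other probe, A_52_P535946, gave 0.31 (SE 0.15).

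Lss and Hsd17b7 were the 2 genes of these steps with a log2 change below 0, and Hsd17b7, Cyp51 and Tm7sf2 overlapped between the groups. Lss, which closes the squalene epoxide ring to lanosterol, read -3.81 and -4.33 on the G2-EC-KO arrays, against -3.49 and -3.62 on the control arrays. Both G2-EC-KO arrays lay below the control arrays and the log2 change was -0.52 (SE 0.20), with a confidence interval of -1.06 to 0.021 (limma, adjusted p = 0.528). It was -0.26 without G2-EC-KO replicate 2, -0.77 without G2-EC-KO replicate 1 and -0.23 with normexp. Its other probe gave -0.22 (SE 0.14). Cyp51, the lanosterol demethylase, read -1.25 and -1.54 on the G2-EC-KO arrays, against -1.55 and -1.51 on the control arrays, so that G2-EC-KO replicate 1 stood apart and replicate 2 lay among the controls. Its 3 probes gave log2 changes of 0.14, 0.20 and 0.14, and at probe A_52_P164161 both G2-EC-KO arrays lay above both control arrays. Tm7sf2, a sterol reductase, read -1.47 and -1.41 on the G2-EC-KO arrays, against -1.44 and -1.67 on the control arrays, and Hsd17b7, the keto reductase of the demethylation complex, read -0.37 and -0.60 on the G2-EC-KO arrays, against -0.24 and -0.62 on the control arrays. Their log2 changes were 0.11 and -0.054.

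**Figure D3:**
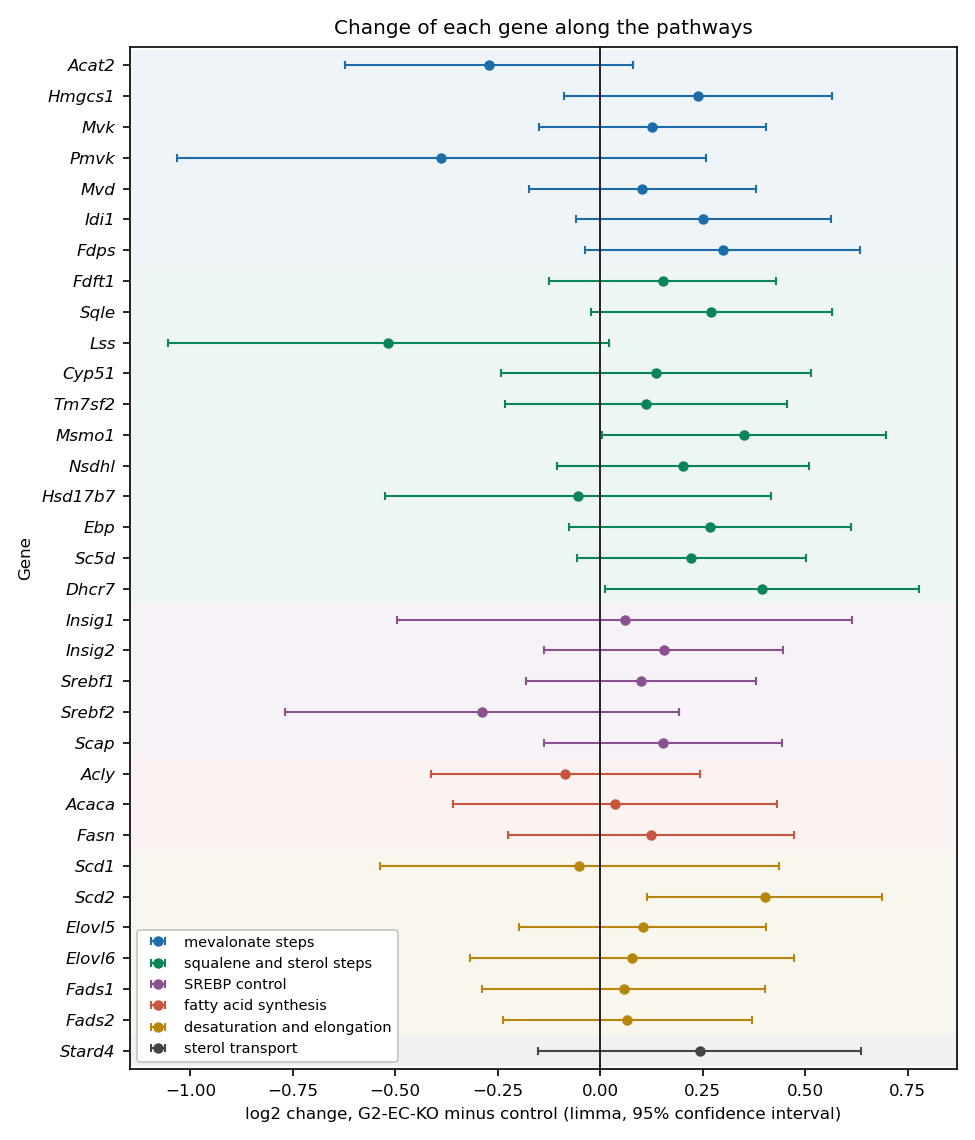
Log2 change, G2-EC-KO minus control, of each gene with its 95% confidence interval from limma, coloured by role and in pathway order from top to bottom. The intervals of Msmo1, Dhcr7 and Scd2 lie above 0 and the other 30 include 0.

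Stard4, a carrier that moves cholesterol between membranes, read 0.81 and 0.95 on the G2-EC-KO arrays, against 0.49 and 0.78 on the control arrays, a log2 change of 0.24 (SE 0.15) that lay between 0.098 and 0.39 with 1 array left out, lowest without control replicate 1. Its 3 probes gave changes of 0.11 to 0.24. Of the 5 genes that control the pathway, 4 had a log2 change above 0, where 58.6% of all genes tested did, with a median of 0.099. Srebf1, the SREBP gene tied mainly to fatty acid synthesis, read 2.80 and 2.79 on the G2-EC-KO arrays, against 2.73 and 2.66 on the control arrays, and Scap, the escort protein, read 2.87 and 2.82 on the G2-EC-KO arrays, against 2.74 and 2.64 on the control arrays. Insig2, one of the retention proteins, read 1.33 and 1.45 on the G2-EC-KO arrays, against 1.24 and 1.23 on the control arrays. For these 3 of the 5 genes both G2-EC-KO arrays lay above both control arrays, where 30.8% of all genes tested did. The log2 changes were 0.099, 0.15 and 0.16. Insig1, the retention protein that is itself a target of SREBP, read -1.55 and -1.07 on the G2-EC-KO arrays, against -1.503 and -1.23 on the control arrays, so that the G2-EC-KO arrays lay on either side of both control arrays, and the log2 change was 0.060 (SE 0.21).

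Srebf2, the SREBP gene tied mainly to cholesterol synthesis, stood on the other side. It read -0.69 and -0.66 on the G2-EC-KO arrays, against -0.61 and -0.16 on the control arrays, with a log2 change of -0.29 (SE 0.18) and a confidence interval of -0.77 to 0.19. Both G2-EC-KO arrays lay below both control arrays, by a narrow margin against control replicate 1, and without control replicate 2 the change was -0.064. The dim second probe, A_52_P302001, was well above background on 1 array of each group and gave -0.46 (SE 0.20).

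The fatty acid synthesis genes overlapped between the groups, 3 of 3, where 47.2% of all genes tested did not overlap. Acly, which makes cytosolic acetyl-CoA from citrate, read 1.20 and 1.11 on the G2-EC-KO arrays, against 1.15 and 1.33 on the control arrays. Acaca, the carboxylase that makes malonyl-CoA, read -1.70 and -1.88 on the G2-EC-KO arrays, against -1.69 and -1.96 on the control arrays. Fasn, the fatty acid synthase, read 3.35 and 3.11 on the G2-EC-KO arrays, against 3.11 and 3.099 on the control arrays, with only G2-EC-KO replicate 1 clearly above the rest, and without that array the change of Fasn was 3.3e-05. Their log2 changes were -0.085 (SE 0.12), 0.037 (SE 0.15) and 0.12 (SE 0.13). Acaca had 4 probes, of which 2 were well above background on fewer than 2 arrays and were not tested.

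Among the desaturases and elongases, Scd2 had the smallest p of the 33 genes. Scd2, a stearoyl-CoA desaturase that makes monounsaturated fatty acids, read 2.40 and 2.40 on the G2-EC-KO arrays, against 2.05 and 1.96 on the control arrays. The G2-EC-KO arrays were nearly equal and both above the controls, with a log2 change of 0.40 (SE 0.11), 1.32-fold, and a confidence interval of 0.11 to 0.69 (limma, adjusted p = 0.443). The change lay between 0.35 and 0.45 when any 1 array was left out. Over all genes tested, 1000 of 13628 had a log2 change as high as that of Scd2 or higher. Scd1, its close relative, read -0.69 and -0.50 on the G2-EC-KO arrays, against -0.33 and -0.75 on the control arrays, a log2 change of -0.051 (SE 0.18), with control arrays 0.42 apart. The probe sequences were not analysed here, so whether the probes of these related genes share signal was not tested.

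Elovl5, an elongase of polyunsaturated fatty acids, read 3.59 and 3.71 on the G2-EC-KO arrays, against 3.51 and 3.58 on the control arrays, with both G2-EC-KO arrays just above the controls. Elovl6, which elongates palmitate to stearate, read -0.75 and -1.05 on the G2-EC-KO arrays, against -0.91 and -1.04 on the control arrays. Fads1, the delta-5 desaturase, read 0.74 and 0.58 in G2-EC-KO, against 0.70 and 0.52 in control. Fads2, the delta-6 desaturase, read -0.52 and -0.66 in G2-EC-KO, against -0.63 and -0.69 in control. These last 3 genes overlapped between the groups, with log2 changes of 0.078, 0.058 and 0.067.

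Several genes could be checked against a further probe, since 17 of them had more than 1 tested probe. In 13 all probes had the same sign, while in Hmgcs1, Idi1, Insig1 and Fasn the signs differed. The dimmer Hmgcs1 probe, A_52_P388072, gave -0.11 (SE 0.13), against 0.24 at the brighter one. The dimmer Idi1 probe, A_52_P441634, gave -0.30 (SE 0.20), against 0.25, and read -2.93 and -3.05 in G2-EC-KO, against -2.95 and -2.43 in control. The dimmer Fasn probe gave -0.17 (SE 0.17). The dimmer Fdft1 probe, A_52_P136138, was measured above background in G2-EC-KO but not well above background in control, on 0 of 2 arrays. Its log2 change was 0.37, with a confidence interval of -0.11 to 0.86 that includes 0 (limma, adjusted p = 0.551). Set against the higher of the control signal and the lowest signal well above background on each control array, the G2-EC-KO mean was 1.17-fold higher. This 1.17-fold is an estimate and not a lower bound. The probe was tested only because both G2-EC-KO arrays were well above background, so its interval is not read as support for a change. Over all 53 tested probes of these genes, 38 were higher and 15 lower, where 50.1% of all 26893 tested probes were higher, and 0 passed an adjusted p of 0.05 while 3 had an unadjusted p under 0.05, where 9.61% of all tested probes did (limma). With the mean over all tested probes of a gene in place of the brightest, the median log2 change of the 33 genes was 0.099, with 24 above 0.

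**Figure D4:**
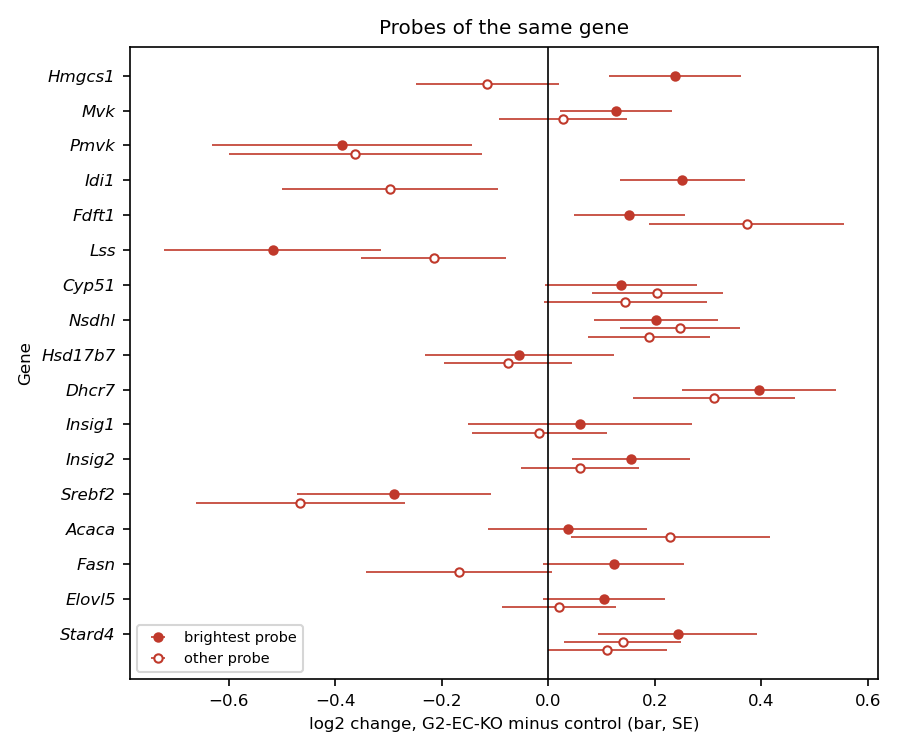
Log2 change with its SE (horizontal bars) of every tested probe of the 17 genes with more than 1 tested probe, the brightest probe filled and the others open. Open and filled symbols fall on opposite sides of 0 for Hmgcs1, Idi1, Insig1 and Fasn.

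The size of these changes was close to the gaps between arrays of the same group. The median absolute difference between the replicates was 0.14 for the G2-EC-KO arrays and 0.12 for the control arrays over the 33 genes. Relative to the control mean, the median of the 33 genes was 0.14 on G2-EC-KO replicate 1 and 0.13 on G2-EC-KO replicate 2, with 26 and 22 genes above 0. Over all 13628 genes tested the medians on these arrays were 0.033 and 0.060, with 7897 and 7953 genes above 0. The squalene and sterol genes had medians of 0.16 and 0.23 on G2-EC-KO replicates 1 and 2. The fatty acid synthesis genes had 0.13 and -0.055, and the desaturases and elongases 0.14 and 0.022. The difference between the role groups was not tested.

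Further genes of sterol and lipid handling, 59 with a probe of which 50 were tested, had 31 higher and 19 lower, with a median log2 change of 0.046 and 0 past an adjusted p of 0.05 (limma). At an unadjusted p under 0.05, 4 were higher and 2 lower of 50, which is near the 6.19% higher and 2% lower over all genes tested, so the values of these 6 genes are given as a description. Soat1, which esterifies cholesterol for storage, read -0.36 and -0.23 in G2-EC-KO, against -0.84 and -0.76 in control, a log2 change of 0.51 (SE 0.12). Its other probes gave smaller changes, 0.17 (SE 0.14) at A_52_P651833 and 0.43 (SE 0.14) at A_52_P642167. Abcg1, an exporter of cholesterol to lipoproteins, read 0.82 and 1.22 in G2-EC-KO, against 0.46 and 0.30 in control. Abca1, an exporter of the same family, read 1.40 and 1.54 in G2-EC-KO, against 1.16 and 1.04 in control. The groups did not overlap for these 3 genes, which were picked by their p on the same arrays. Over the 50 tested genes the groups did not overlap for 21, where 47.2% of all genes tested did not. The log2 changes of Abcg1 and Abca1 were 0.64 and 0.37. Mbtps2, the protease that makes the final cut of SREBP, read not well above background in control, on 0 of 2 arrays. G2-EC-KO was 1.46-fold higher, with a confidence interval of 0.13 to 0.96 on the log2 scale (limma, adjusted p = 0.463). Mbtps2 is among the 4 counted as higher, but was tested only because both G2-EC-KO arrays were well above background. Its interval and p-values are therefore not read as support for a change. The log2 change of Mbtps2, 0.54, was 0.23 with normexp and 0.25 from the value table, where the unadjusted p was 0.0896 and 0.172. The 1.46-fold is thus an estimate and not a lower bound. On the lower side, Nr1h2, a sterol-sensing nuclear receptor, read 2.56 and 2.44 in G2-EC-KO, against 2.81 and 2.82 in control. Dgat1, which makes triglycerides, read 1.22 and 0.68 in G2-EC-KO, against 1.504 and 1.49 in control, where G2-EC-KO replicate 2 was the lowest, and its change of -0.55 was -0.28 without that array. The adjusted p-values of the 6 genes at an unadjusted p under 0.05 lay between 0.390 and 0.519 (limma).

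Markers of other cell types and of cell division were read on the same arrays. Proliferation markers, 15 genes, had a median log2 change of 1.47, with 14 higher, 13 without overlap and 0 past an adjusted p of 0.05 against 13 at an unadjusted p under 0.05 (limma), where 58.6% of all genes tested were higher, 47.2% were without overlap and 6.19% were higher at an unadjusted p under 0.05. Their summed signals were 85.8 and 88.8 times the 75th percentile in G2-EC-KO, against 73.0 and 73.6 in control. Most of each sum came from Pcna, which read 6.03 and 5.81 in G2-EC-KO, against 5.95 and 6.01 in control. Its log2 change was -0.061, so the sums understate the change of the other proliferation markers. Macrophage markers were higher in 10 of 10, with a median of 0.33 and sums of 12.2 and 11.2 in G2-EC-KO against 8.21 and 11.7 in control, so that control replicate 1 stood low. Without control replicate 1 the macrophage median was -0.031. Cardiomyocyte markers were higher in 12 of 12, with a median of 0.36 that was 0.047 without G2-EC-KO replicate 2, and sums of 101 and 135 in G2-EC-KO against 94.8 and 95.8 in control. Fibroblast markers were higher in 9 of 10 (median 0.19), and pericyte and smooth muscle markers in 2 of 9 (median -0.12), where sums were 340 and 243 in G2-EC-KO and 326 and 294 in control. Fibroblast sums were 177 and 196 in G2-EC-KO, against 152 and 182 in control. Endothelial sums were 597 and 600 in G2-EC-KO, against 575 and 630 in control. The samples thus also held much signal from markers of other cell types. Since the lists differ in their genes, the sums are not shares of cells. Cd3g was well above background on 0 arrays, and lymphocyte markers were higher in 2 of 5, with a median of -0.036 and sums of 0.554 and 0.536 in G2-EC-KO, against 0.916 and 0.372 in control.

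Adipocytes are a rich source of lipogenic transcripts, so their markers were also read. Of 10 markers 7 were tested, 1 higher and 6 lower, with a median log2 change of -0.44. Lep and Retn were well above background on 0 arrays and Plin1 on 1. Adipoq read -6.31 and -4.57 in G2-EC-KO, against -4.63 and -5.24 in control. Cfd read -5.49 and -2.13 in G2-EC-KO, against -1.48 and -1.78 in control. Cidec read -6.37 and -4.69 in G2-EC-KO, against -3.54 and -4.76 in control. On G2-EC-KO replicate 1 Adipoq and Cidec were not well above background, so their values there have only a bound. Lipe, the hormone-sensitive lipase, read 2.05 and 2.06 in G2-EC-KO, against 2.46 and 2.54 in control, and no adipocyte marker passed an adjusted p of 0.05, with 1 at an unadjusted p under 0.05 (limma). The summed signal was 42.6 and 45.1 in G2-EC-KO and 46.0 and 47.4 in control. Most of each sum came from Lpl and Pnpla2, so the sums say little about Adipoq, Cfd and Cidec. Lpl read 4.35 and 4.59 in G2-EC-KO, against 4.31 and 4.48 in control. Pnpla2 read 4.05 and 3.94 in G2-EC-KO, against 4.22 and 4.15 in control. The part of any of these marker groups in the values of the sterol and fatty acid synthesis genes was not tested.

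**Figure D5:**
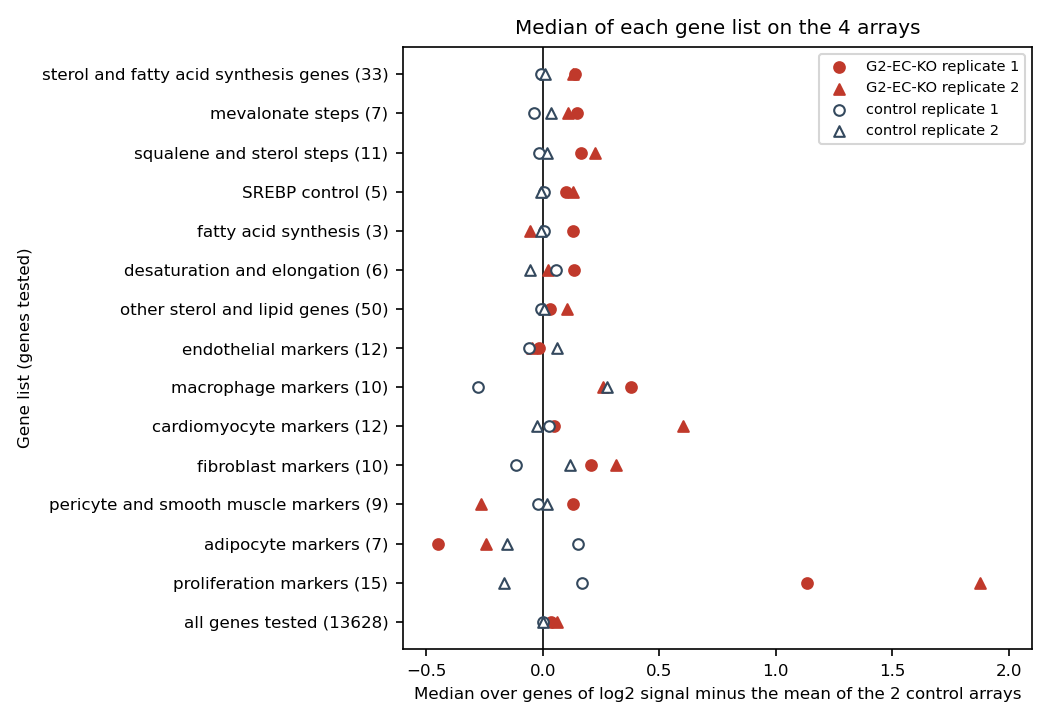
Median over the genes of each list of the log2 signal on each array, with the mean of the control arrays subtracted; filled symbols are G2-EC-KO arrays and open symbols control arrays, and the number of genes tested is in brackets. The 33 sterol and fatty acid synthesis genes lie at 0.14 and 0.13 for G2-EC-KO, and proliferation markers at 1.13 and 1.88.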

How the data were processed

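Total RNA of 4 samples was labelled with Cy3 and hybridised to 1-colour arrays, per the labels. The intensity values deposited by the authors are linear spot signals which, per the file headers, were quantified with Feature Extraction 10.7.3.1 and not normalized between arrays. The submitters' processing notes name version 10.5. A deposited value table equals median signal minus local background plus 16 in every spot and served as an alternative.

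Control spots and outlier spots, 87 to 101 per array, were left out. Values were log2 of the processed signal minus the 75th percentile of each array, averaged over the spots of a probe. A probe counted as well above background when over 50% of its spots were, and 26893 probes well above background on at least 2 of 4 arrays were tested. RefSeq (GRCm38.p6) named 26933 of 41174 probes by accession. The comparison used limma 3.58.1 under R 4.3.3 (lmFit, eBayes, two-sided, group alone), with Benjamini-Hochberg adjustment over all probes tested at 0.05, and the fit was tested on simulated data. The normexp alternative used median spot signals, since mean signals are not used here, with an offset of 50. The value table was floored at 1.

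The genes and lists were chosen with earlier results of these data known. All 33 genes are named, and other pathway genes at an unadjusted p under 0.05. Cd68 and Trbc2 among the markers, and Pdss2 and Idi2 among the pathway genes, were matched to no probe by accession.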

Additional observations from a re-analysis of the deposited data

How the results depend on the processing

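The log2 change of each of the 33 genes kept its sign under the 8 alternatives that used all arrays and 1 probe per gene. These were an intensity trend, the replicate block, normexp, the value table, quantile normalization, median centring, and the filter on dim probes either dropped or applied to all 4 arrays. None of 396 values, those with 1 array left out included, passed an adjusted p of 0.05 (limma). With 1 array left out, 23 genes kept their sign, 19 higher and 4 lower, and 10 turned. Their ranges were Cyp51 -0.011 to 0.28, Tm7sf2 -0.0026 to 0.23, Hsd17b7 -0.24 to 0.13, Insig1 -0.18 to 0.30, Acly -0.18 to 0.0088, Acaca -0.097 to 0.17, Scd1 -0.26 to 0.16, Elovl6 -0.070 to 0.23, Fads1 -0.032 to 0.15 and Fads2 -0.0018 to 0.13. Of the genes that kept their sign, 12 moved by over 1.5 times, with Fasn 3.3e-05 to 0.25, Pmvk -0.70 to -0.078, Srebf2 -0.51 to -0.064, Lss -0.77 to -0.26, Stard4 0.098 to 0.39, Acat2 -0.36 to -0.18, Hmgcs1 0.16 to 0.32, Fdps 0.20 to 0.40, Ebp 0.15 to 0.38, Nsdhl 0.13 to 0.27, Insig2 0.10 to 0.21 and Elovl5 0.044 to 0.16. With normexp Acat2 was -0.13, Lss -0.23 and Mbtps2 0.23, and Mbtps2 was 0.25 from the value table. The genes at an unadjusted p under 0.05 numbered 0 to 5 higher and 0 to 2 lower with 1 array left out. The probes past an adjusted p of 0.05, 1 of 26893, became 0 to 8, and those at an unadjusted p under 0.05, 2585, became 1339 to 5618. Median log2 changes with 1 array left out were for the 33 genes 0.13 to 0.14, squalene and sterol genes 0.16 to 0.25, SREBP control 0.10 to 0.13, fatty acid synthesis -0.055 to 0.13, the further pathway genes 0.031 to 0.10, all genes 0.033 to 0.060. Marker medians were endothelial -0.058 to 0.055, cardiomyocyte 0.047 to 0.60, macrophage -0.031 to 0.61, fibroblast 0.070 to 0.38, pericyte and smooth muscle -0.27 to 0.13, adipocyte -0.45 to -0.20, lymphocyte -0.55 to 0.48, proliferation 1.13 to 1.88.

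The median of the 33 genes was 0.10 with normexp, 0.11 with quantile normalization, 0.14 with median centring, 0.10 from the value table and 0.099 with the mean over all probes of a gene. Median centring gave 0.12 for SREBP control and 0.062 for all genes, and quantile normalization 0.074 for SREBP control. The mean over probes gave 0.062 for the mevalonate steps, -0.052 for endothelial markers and 0.025 for all genes. Adipocyte markers had -0.20 with normexp, -0.19 with the filter on all 4 arrays and -0.25 from the value table. Genes higher at an unadjusted p under 0.05 numbered 1 with quantile normalization, 1 without a filter and 5 with the trend, and 1 gene was lower with the filter on all 4 arrays. Probes past an adjusted p of 0.05 numbered 2 with normexp, quantile normalization and median centring each, and 0 without a filter, with the filter on all 4 arrays and with the trend. The cause was not tested in any of these.

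Replicate numbers are shared by both groups, but the deviations of same-numbered arrays correlated at only 0.0682 over probes, with 2 pairs, so the numbers were not taken as pairs. With the replicate block 0 probes passed an adjusted p of 0.05, 3 of the 33 genes were higher and 1 lower at an unadjusted p under 0.05 (limma). The SE of the 33 genes lay between 0.10 and 0.24 on the log2 scale.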
